A study of Homo sapiens with 6 samples.

Results

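The fibril-forming collagens followed here are the 8 genes COL1A1, COL1A2, COL3A1, COL5A1, COL5A2, COL5A3, COL11A1 and COL27A1, matched by gene symbol. They were chosen by family, but with earlier results of these data known. The family's 3 other members, COL2A1, COL11A2 and COL24A1, are not among the 8 and did not pass the test described below. All 8 were found among the 16569 genes of the deposited table. They were measured by RNA sequencing of poly(A) RNA in wild-type LX-2 cells, an established human hepatic stellate cell line. Stellate cells are the liver's pericytes and, once activated, its main producers of scar collagen. In the IGFBP-7 group, 3 libraries came from cells that received 100 ng/mL of the protein for 24 h, and in the PBS group 3 libraries came from cells that received phosphate-buffered saline for the same time. Both groups had been grown in DMEM with 2% serum and had then spent 18 h without serum. IGFBP-7 is a secreted member of the insulin-like growth factor binding protein family. All libraries come from 1 line in culture with no other liver cell added, and no label tells whether replicate libraries were separate cultures, so p-values measure only the spread between libraries, which may be technical.

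Fibril-forming collagens are made as procollagen chains that join into triple helices in the endoplasmic reticulum. They are hydroxylated and folded there, exported, trimmed of their propeptides outside the cell and packed side by side into fibrils that lysyl oxidases cross-link. Type I collagen, the bulk of scar fibrils, holds a pair of COL1A1 chains and a single COL1A2 chain, although COL1A1 chains can also form a trimer alone. Type III is built from COL3A1 only. Type V, which starts fibrils and limits their width, most often joins COL5A1 with COL5A2 and in some tissues takes up COL5A3. COL11A1 belongs to type XI, the cartilage counterpart of type V, and COL27A1 forms type XXVII, best known from cartilage.

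The transcripts of all 8 genes were higher in IGFBP-7 libraries, but by very unequal amounts. COL5A1 rose 5.99-fold, COL27A1 4.97-fold, COL1A1 4.01-fold, COL1A2 3.35-fold, COL11A1 2.90-fold and COL5A3 2.03-fold. COL5A2 and COL3A1 rose by 1.25-fold and 1.21-fold only. The transcripts of the partner chains of type V therefore stood in another proportion after IGFBP-7. Per kilobase of transcript, COL5A1 was above COL5A2 in IGFBP-7 libraries and below it in PBS libraries. The protein chains were not measured.

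The transcripts were also searched for matches to the seed of the miR-29 microRNAs. These microRNAs are known to bind fibrillar collagen messages and to fall in liver fibrosis. The matches played no part in the choice of genes, but the seed was picked for this known binding, so matches were likely beforehand. The mature sequences, from RefSeq (GRCh38.p14), are shown 5′ to 3′ with the seed, bases 2 to 8, in capitals. The 3 share that seed.
hsa-miR-29a-3p: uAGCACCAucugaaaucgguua
hsa-miR-29b-3p: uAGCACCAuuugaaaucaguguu
hsa-miR-29c-3p: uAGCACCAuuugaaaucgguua

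Letters complementary to the seed, TGGTGCT, were searched on the sense strand of the 3′ UTR of each gene's longest coding transcript (GENCODE release 29, GRCh38). All 8 genes held at least 1 match: COL5A1 held 4, COL5A3 held 3, COL3A1 and COL11A1 held 2 each, and COL1A1, COL1A2, COL5A2 and COL27A1 held 1 each. Among 4228 genes whose 3′ UTR was 839 to 2540 bases long, the range of these 8, 14.5% held a match and 1.51% held 2 or more. Since the seed was picked for its known collagen targets, this contrast is a description and not an independent finding. The first match in the 3′ UTR of each gene follows as 22 bases of the coding strand with the matching letters in capitals. It is shown because all 8 transcripts hold the searched letters, and other shared letters were not searched.
COL1A1, chr17:50184570-50184591, minus strand: ggagggaatcacTGGTGCTata
COL1A2, chr7:94430901-94430922, plus strand: gaagaatgttgaTGGTGCTaga
COL3A1, chr2:189012004-189012025, plus strand: aaaatgtctcaaTGGTGCTata
COL5A1, chr9:134843330-134843351, plus strand: ctcaatgaaaatTGGTGCTtat
COL5A2, chr2:189032871-189032892, minus strand: ttcctttaatgaTGGTGCTaaa
COL5A3, chr19:9960350-9960371, minus strand: atggggtgcattTGGTGCTgag
COL11A1, chr1:102877736-102877757, minus strand: tttgaatttcttTGGTGCTgta
COL27A1, chr9:114311288-114311309, plus strand: ctgtgaaatcgcTGGTGCTcac

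A match describes the letters only. COL27A1 and COL1A1, among the strongest risers, hold 1 match each, COL5A1 holds 4 and COL3A1, which rose least, holds 2. The mature microRNAs were not measured, since the libraries were made from poly(A) RNA. MIR29B2CHG, the host transcript of miR-29b and miR-29c on chromosome 1, was looked up after its row had been seen. It averaged 1003 ± 29.4 normalized counts in IGFBP-7 libraries and 936 ± 79.0 in PBS libraries (SD, n = 3 each). Its log2 difference of 0.10 ± 0.08 (SE) did not pass (limma adjusted p = 0.295). MIR29A and MIR29B1, which give miR-29a and miR-29b from chromosome 7, are not covered by it. The part of miR-29 in the collagen values was not tested.

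Levels are the authors' normalized counts, read counts divided by a size factor per library. Each log2 change is the difference IGFBP-7 minus PBS of log2(normalized count + 1), given ± SE from limma-trend, with p-values adjusted over 11872 genes and a threshold of 0.05. Those 11872 genes averaged 10 or more normalized counts across all libraries, and each of the 8 collagens was above that minimum. The treatment moved much of the transcriptome: 60.6% of tested genes passed the test, 31.3% higher and 29.2% lower. When each library was scaled to its total in place of the size factor, 20.5% were higher and 35.2% lower, and all 8 collagens were still higher. A member that is merely higher is therefore close to common, and the size of the change says more: 5.05% of tested genes passed the test with at least a 2-fold rise, as did 6 of the 8 collagens, 2.65% with at least a 3-fold rise, as did 4, and 1.73% with at least a 4-fold rise, as did 3. COL1A1, at 4.01-fold, and COL5A3, at 2.03-fold, lay at a cut. With scaling to the library total, their log2 changes of 1.86 and 0.88 were below 4-fold and 2-fold. COL1A1 was also below 4-fold with edgeR and with DESeq2 (log2 change 1.98 in each), and below 3-fold under quantile normalization (1.42). Over all alternatives COL5A3 ranged over 0.86 to 1.16. The groups did not overlap, with IGFBP-7 libraries above, for 8 of 8 collagens and for 32.9% of tested genes. In a bulk sample, a change in the share of cells that express a gene and a change in RNA per cell cannot be told apart. In the gene lists below, counts of genes higher or lower are to be read against the 31.3% and 29.2% of all tested genes.

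The IGFBP-7 libraries held 45242993 to 55479940 recovered reads on genes and the PBS libraries 40599380 to 43537923, with 2 reads to a sequenced fragment. Of 12 stellate and myofibroblast markers, 10 were in the table, and their summed level was 52204 to 60331 normalized counts in IGFBP-7 libraries and 34061 to 35391 in PBS libraries, most of it TAGLN, while DES was at or near 0 in both groups. Hepatocyte markers summed to 219 to 260.0 in IGFBP-7 libraries and 242 to 291 in PBS libraries, with ALB, APOB and HNF4A near 0. Most of the hepatocyte sum was SERPINA1, with 227 ± 24.2 in IGFBP-7 libraries and 252 ± 26.5 in PBS libraries, which did not pass (limma adjusted p = 0.396). Endothelial markers summed to 219 to 258 in IGFBP-7 libraries and 181 to 228 in PBS libraries. Of the 4 tested, PECAM1 rose to 113 ± 10.2 in IGFBP-7 libraries, against 61.5 ± 3.80 in PBS libraries (limma adjusted p = 8.58e-04). VWF, STAB2 and KDR did not pass. Epithelial markers summed to 1634 to 1736 in IGFBP-7 libraries and 1210.0 to 1341 in PBS libraries, and leukocyte markers to 1736 to 2016 in IGFBP-7 libraries and 3286 to 3370 in PBS libraries. Members of a list did not move alike. Of 9 tested stellate markers, PDGFRB, PDGFRA, ACTA2 and TAGLN rose, THY1 and HAND2 fell (log2 changes -0.27 and -0.59, limma adjusted p = 6.79e-06 and 0.024), and LHX2, RGS5 and DCN did not pass. The leukocyte sum was mostly CD68, which fell, as did CD14, whereas CSF1R rose to 293 ± 44.3 normalized counts in IGFBP-7 libraries, against 56.5 ± 8.05 in PBS libraries (limma adjusted p = 1.93e-15), and PTPRC and CD3E were near 0 in both groups. Of the epithelial markers SOX9 rose, with 1193 ± 65.9 in IGFBP-7 libraries and 852 ± 44.5 in PBS libraries, KRT7 did not pass, and EPCAM, KRT19 and CDH1 were near 0. The part of these markers in the collagen values was not tested.

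COL1A1 and COL1A2 encode the chains of type I collagen. COL1A1 (ENSG00000108821; GRCh38 chr17:50183289-50201632, minus strand, 51 exons) had 207294, 189675 and 199813 normalized counts in the IGFBP-7 libraries and 50703, 47543 and 50596 in the PBS libraries. The libraries of each group lay close together, and the lowest IGFBP-7 library was 3.74 times the highest PBS library. COL1A1 averaged 198928 ± 8843 in IGFBP-7 libraries and 49614 ± 1794 in PBS libraries (SD, n = 3 each), a log2 change of 2.00 ± 0.04 and a fold of 4.01 with a 95% interval of 3.81 to 4.22 (limma adjusted p = 2.04e-42). It ranked 4 among all genes of the table by mean normalized count in IGFBP-7 libraries and 18 in PBS libraries.

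COL1A2 (ENSG00000164692; chr7:94394561-94431232, plus strand, 52 exons) had 5963, 5542 and 5985 normalized counts in the IGFBP-7 libraries, against 1811, 1714 and 1687 in the PBS libraries. Every IGFBP-7 library was at least 3.06 times every PBS library. The means were 5830 ± 249.5 in IGFBP-7 libraries and 1737 ± 65.6 in PBS libraries (SD, n = 3 each), and the log2 change was 1.75 ± 0.06, a 3.35-fold rise with a 95% interval of 3.09 to 3.64 (limma adjusted p = 5.93e-31). Transcripts of both chains of type I collagen rose, and the more abundant COL1A1 transcript rose more.

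COL3A1 encodes the only chain of type III collagen, which accompanies type I in early scar. COL3A1 (ENSG00000168542; chr2:188974320-189012746, plus strand, 51 exons) had 13457, 13028 and 13377 normalized counts in the IGFBP-7 libraries, against 11080.1, 10529 and 11318 in the PBS libraries. The groups did not overlap, yet the lowest IGFBP-7 library was only 1.15 times the highest PBS library. With means of 13287 ± 228 in IGFBP-7 and 10976 ± 404 in PBS libraries (SD, n = 3 each), the log2 change was 0.28 ± 0.04, a 1.21-fold rise with a 95% interval of 1.14 to 1.29 (limma adjusted p = 6.09e-07). Of all tested genes, 71.0% had a smaller log2 change. With values scaled to the library total in place of the size factor, the median log2 change over all tested genes was -0.12 in place of 0.02, and that of COL3A1 was 0.13 (limma adjusted p = 0.0046).

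COL5A1 encodes the chain that every common form of type V collagen needs. COL5A1 (ENSG00000130635; chr9:134641774-134844843, plus strand, 66 exons) had 76825, 71720.0 and 72352 normalized counts in the IGFBP-7 libraries, against 12483, 11856 and 12515 in the PBS libraries. The lowest IGFBP-7 library was 5.73 times the highest PBS library, the widest gap among the 8 collagens. COL5A1 averaged 73632 ± 2783 in IGFBP-7 libraries and 12285 ± 371 in PBS libraries (SD, n = 3 each), a log2 change of 2.58 ± 0.04 and a fold of 5.99 with a 95% interval of 5.67 to 6.34 (limma adjusted p = 1.08e-45). Of all tested genes, 99.1% had a smaller log2 change.

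An antisense gene, COL5A1-AS1 (ENSG00000204011; chr9:134649385-134652843, minus strand), lies inside COL5A1. It had 98.1, 113 and 118 normalized counts in the IGFBP-7 libraries, against 11.3, 7.86 and 6.41 in the PBS libraries, which is 96 to 133 fragments in IGFBP-7 libraries and 6 to 11 in PBS libraries. Its log2 change was 3.56 ± 0.37 (limma adjusted p = 4.65e-12). The library kit is directional, but how the authors' counting used strand is not known from the labels, and reads of COL5A1 and of its antisense gene may not have been told apart.

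COL5A2, the usual partner of COL5A1 in type V collagen, moved little. COL5A2 (ENSG00000204262; chr2:189031896-189225312, minus strand, 54 exons) had 31283, 30292 and 30874 normalized counts in the IGFBP-7 libraries, against 25174, 24144 and 24736 in the PBS libraries. The groups stood apart by a narrow margin, the lowest IGFBP-7 library being 1.20 times the highest PBS library. The means were 30816 ± 498 in IGFBP-7 and 24685 ± 517 in PBS libraries (SD, n = 3 each), and the log2 change of 0.32 ± 0.04 was a 1.25-fold rise with a 95% interval of 1.18 to 1.32 (limma adjusted p = 9.66e-10). COL5A2 and COL3A1, the collagens with the smallest rises, are neighbours on chromosome 2, on opposite strands with their 3′ ends facing each other 19.1 kb apart. Other genes of that stretch went both ways. WDR75 and ASNSD1 had log2 changes of 0.32 and 0.25, GULP1 and SLC40A1 had -0.24 and -0.32, and ANKAR and OSGEPL1-AS1 did not pass. The part of location in these changes was not tested.

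COL5A3, the type V chain of restricted tissues, was the scarcest of the 8. COL5A3 (ENSG00000080573; chr19:9959561-10010471, minus strand, 67 exons) had 286, 189 and 225 normalized counts in the IGFBP-7 libraries, against 92.7, 129.6 and 119.6 in the PBS libraries, from 218 to 280.0 fragments in IGFBP-7 libraries and 90.0 to 132 in PBS libraries. The first IGFBP-7 library was the highest and the first PBS library the lowest, and the groups did not overlap. With means of 233 ± 49.2 in IGFBP-7 and 114 ± 19.1 in PBS libraries (SD, n = 3 each), the log2 change was 1.02 ± 0.18, a 2.03-fold rise with a 95% interval of 1.58 to 2.60 (limma adjusted p = 2.52e-06). The spread within groups was the widest of the 8, with a coefficient of variation of 21.1% in IGFBP-7 and 16.8% in PBS libraries, while the other 7 collagens had 1.62% to 5.46% in IGFBP-7 and 2.09% to 8.30% in PBS libraries.

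COL11A1 encodes a chain of type XI collagen that can stand in for type V chains in mixed trimers. COL11A1 (ENSG00000060718; chr1:102876467-103108872, minus strand, 67 exons) had 2927, 2862 and 2635 normalized counts in the IGFBP-7 libraries, against 878, 999.7 and 1031 in the PBS libraries. Each IGFBP-7 library was at least 2.56 times each PBS library. The means were 2808 ± 153 in IGFBP-7 libraries and 969.6 ± 80.5 in PBS libraries (SD, n = 3 each), and the log2 change was 1.54 ± 0.07, a 2.90-fold rise with a 95% interval of 2.62 to 3.20 (limma adjusted p = 1.19e-24).

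COL27A1, the type XXVII chain, stood next to COL5A1 in the size of its rise. COL27A1 (ENSG00000196739; chr9:114155560-114312511, plus strand, 61 exons) had 9243, 9104 and 8800.2 normalized counts in the IGFBP-7 libraries, against 1895, 1761 and 1805 in the PBS libraries. The lowest IGFBP-7 library was 4.64 times the highest PBS library. Its means were 9049 ± 226 in IGFBP-7 and 1820.2 ± 68.2 in PBS libraries (SD, n = 3 each), and its log2 change was 2.31 ± 0.06, a 4.97-fold rise with a 95% interval of 4.60 to 5.37 (limma adjusted p = 1.42e-37).

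**Figure D1:**
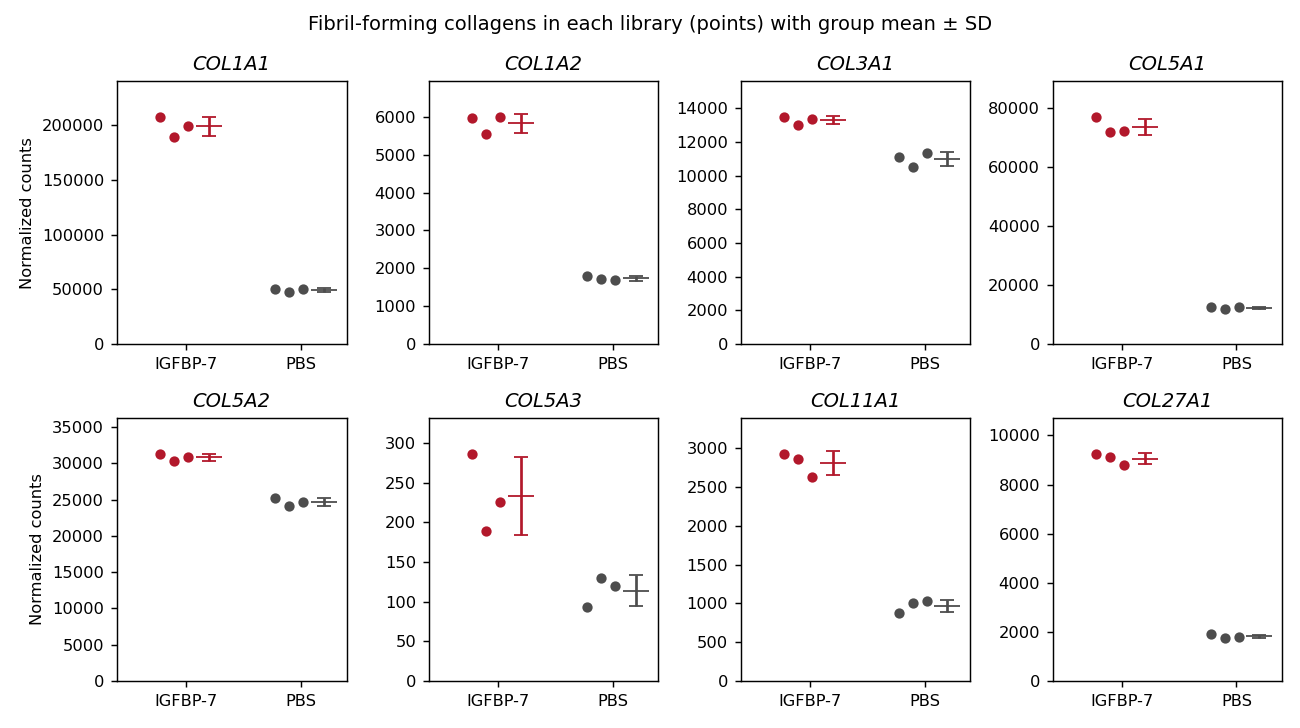
Normalized counts of the 8 fibril-forming collagens, a panel for each gene with its own linear axis starting at 0, IGFBP-7 libraries left of PBS libraries. Points are libraries and bars beside them give the group mean ± SD (n = 3); the groups stand far apart for COL5A1, COL27A1 and COL1A1, and close together, without overlap, for COL3A1 and COL5A2.

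Levels of different genes were compared after division by the length of the longest coding transcript, 5.411 kb for COL1A2 to 8.471 kb for COL5A1, from GENCODE release 29, which may not be the authors' annotation. Per kilobase, the order in IGFBP-7 libraries was COL1A1 with 29572 ± 1315 normalized counts per kb, COL5A1 with 8692 ± 329, COL5A2 with 4352 ± 70.3, COL3A1 with 2397 ± 41.1, COL27A1 with 1162 ± 29.1, COL1A2 with 1077 ± 46.1, COL11A1 with 383 ± 20.9 and COL5A3 with 37.8 ± 7.97 (SD, n = 3). In PBS libraries it was COL1A1 with 7375 ± 267 normalized counts per kb, COL5A2 with 3486 ± 73.0, COL3A1 with 1980.1 ± 73.0, COL5A1 with 1450.2 ± 43.8, COL1A2 with 321 ± 12.1, COL27A1 with 234 ± 8.76, COL11A1 with 132 ± 11.0 and COL5A3 with 18.5 ± 3.10 (SD, n = 3). COL5A1 was thus the second most abundant of the 8 with IGFBP-7 and the fourth with PBS, and COL27A1 stood above COL1A2 with IGFBP-7 and below it with PBS. In IGFBP-7 libraries these neighbours were the closest, with 1130 to 1187 per kb for COL27A1 and 1024 to 1106 for COL1A2, ranges that did not overlap but whose order also rests on the transcript lengths used. No other neighbours in either order overlapped.

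As a share of the 8 collagens per kilobase, COL1A1 made up 62.0% ± 0.517 in IGFBP-7 libraries and 49.2% ± 0.305 in PBS libraries (SD, n = 3 each). COL5A1 made up 18.2% ± 0.274 in IGFBP-7 libraries, against 9.67% ± 0.0254 in PBS libraries. COL5A2 made up 9.13% ± 0.194 in IGFBP-7 libraries, against 23.2% ± 0.314 in PBS libraries. COL3A1 made up 5.03% ± 0.110 in IGFBP-7 libraries, against 13.2% ± 0.173 in PBS libraries. The collagen transcripts of IGFBP-7 libraries were thus richer in COL1A1 and COL5A1, and poorer in COL5A2 and COL3A1 although both of these rose. COL1A2 made up 2.26% ± 0.0530 in IGFBP-7 libraries, against 2.14% ± 0.0831 in PBS libraries.

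**Figure D2:**
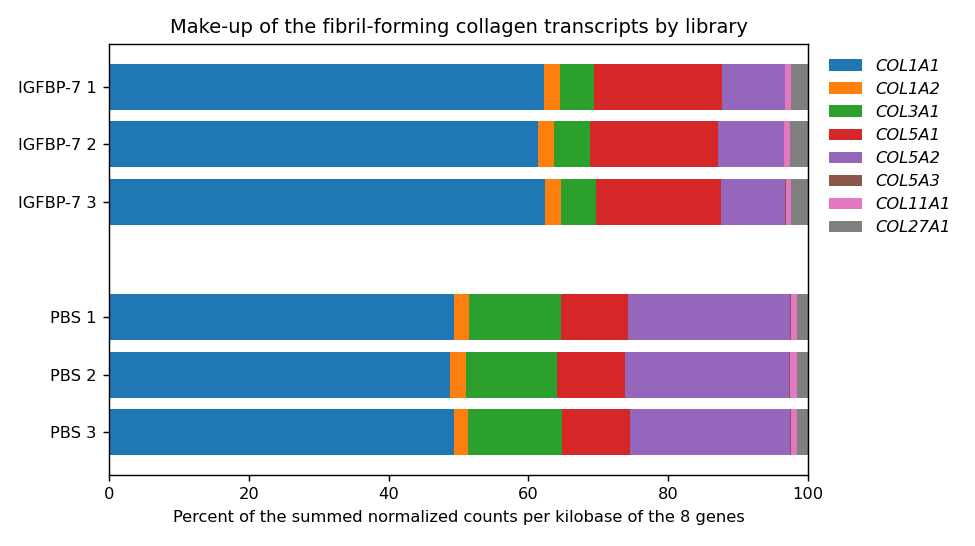
Share of each fibril-forming collagen in the summed normalized counts per kilobase of the 8, in percent on the horizontal axis, with 1 stacked bar per library and IGFBP-7 libraries above PBS libraries. COL1A1 and COL5A1 take 62.0% and 18.2% on average in IGFBP-7 libraries, against 49.2% and 9.67% in PBS libraries, and COL5A3 is too thin to be seen.

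Of all normalized counts in the table, the 8 genes together took 1.44%, 1.37% and 1.43% in the IGFBP-7 libraries. In the PBS libraries they took 0.489%, 0.462% and 0.479%. The table lacks some genes, such as COL6A1, COL6A2 and P4HB, so these are not shares of the whole transcriptome. The share does not depend on the size factor. The means were 1.41% ± 0.0362 in IGFBP-7 and 0.476% ± 0.0139 in PBS libraries, a difference of 0.937 percentage points that reached p = 0.1 in an exact two-sided permutation test, the smallest p that 3 against 3 libraries can give. With FN1, which encodes the matrix glycoprotein fibronectin, left out of the total, the shares were 1.45% ± 0.0386 in IGFBP-7 and 0.479% ± 0.0140 in PBS libraries.

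Ratios between members within a library show the unequal change without any scaling between libraries. Per kilobase, COL5A2 over COL5A1 was 0.487, 0.505 and 0.510 in the IGFBP-7 libraries, against 2.41, 2.44 and 2.36 in the PBS libraries. COL5A1 was thus above COL5A2 in each of the 3 IGFBP-7 libraries and below it in each of the 3 PBS libraries, and the ratio differed by -2.26 on the log2 scale. The ratio of COL3A1 to COL1A1 averaged 0.0811 ± 0.00229 in IGFBP-7 libraries and 0.268 ± 0.00314 in PBS libraries (SD, n = 3 each), a log2 difference of -1.73.

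COL1A1 over COL1A2 was 28.0, 27.5 and 26.9 per kilobase in the IGFBP-7 libraries, against 22.5, 22.3 and 24.1 in the PBS libraries, so that COL1A1 exceeded COL1A2 by over 20 times in both groups, although type I collagen uses a pair of COL1A1 chains for each COL1A2 chain. COL5A1 over COL1A1 was 0.294 ± 0.00637 in IGFBP-7 and 0.197 ± 0.00128 in PBS libraries (log2 difference 0.58), and COL27A1 over COL1A1 was 0.0393 ± 0.00185 in IGFBP-7 and 0.0317 ± 0.000770 in PBS libraries (log2 difference 0.31; SD, n = 3 each). COL11A1 and COL5A3 rose less than COL5A1, with log2 differences of the ratio to COL5A1 of -1.05 and -1.56. None of the 7 ratios overlapped between the groups, and each reached p = 0.1 in the exact two-sided permutation test, the smallest p possible here, which stayed 0.1 after Benjamini-Hochberg adjustment over the 7.

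**Figure D3:**
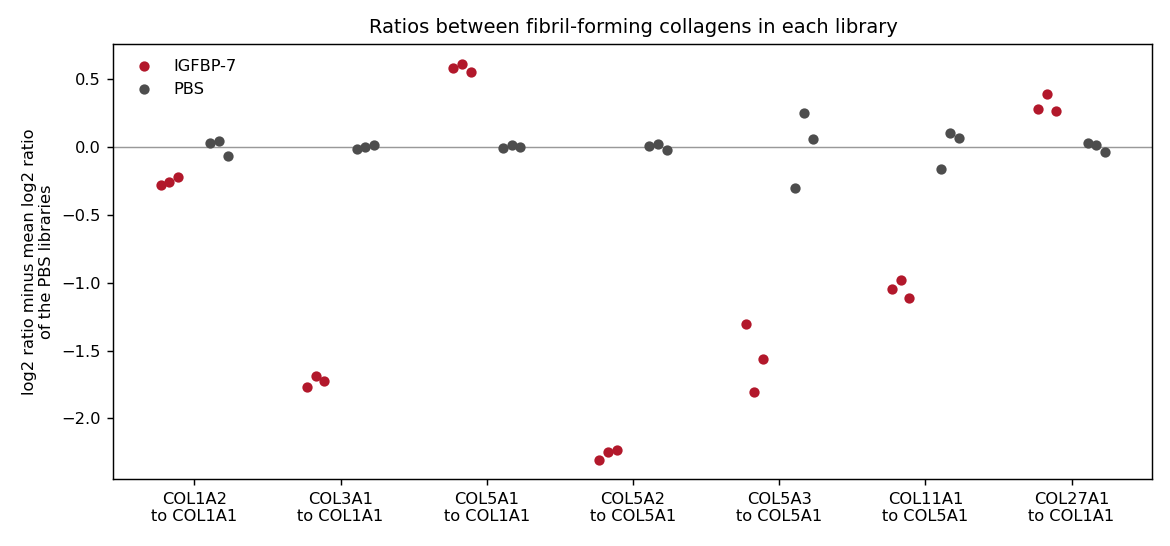
Log2 ratio between fibril-forming collagens in each library, with the mean log2 ratio of the PBS libraries subtracted, IGFBP-7 points left of PBS points for each ratio. COL5A2 to COL5A1 lies farthest from the line at 0 in IGFBP-7 libraries, with a mean difference of -2.26. No ratio overlaps between the groups, and ratios of other gene pairs were not counted.

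Promoter sequence, the 250 bases before the transcription start that RefSeq gives (GRCh38.p14), was at hand for 4 of the 8 genes by symbol: COL5A1, COL5A3, COL11A1 and COL27A1. These starts differ from the ends of the GENCODE genes given above. The COL11A1 window, chr1:103108523-103108772, lies inside the GENCODE gene. The COL5A1 window, chr9:134641553-134641802, runs past the start of the GENCODE gene. Promoters of COL1A1, COL1A2, COL3A1 and COL5A2 were not analysed here. The promoters of COL27A1 and COL5A3 hold the letters of a GC box, GGGCGG on either strand, and in COL5A3 also those of a CCAAT box, CCAAT on either strand, in capitals. They are shown as a gene that rose 4.97-fold and one that rose 2.03-fold.
COL27A1, chr9:114155287-114155536, plus strand: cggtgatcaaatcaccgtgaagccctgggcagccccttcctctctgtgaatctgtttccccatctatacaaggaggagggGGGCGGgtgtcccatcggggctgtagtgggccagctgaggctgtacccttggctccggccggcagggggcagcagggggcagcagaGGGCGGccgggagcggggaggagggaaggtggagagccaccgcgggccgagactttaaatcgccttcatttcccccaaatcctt
COL5A3, chr19:10010505-10010754, minus strand: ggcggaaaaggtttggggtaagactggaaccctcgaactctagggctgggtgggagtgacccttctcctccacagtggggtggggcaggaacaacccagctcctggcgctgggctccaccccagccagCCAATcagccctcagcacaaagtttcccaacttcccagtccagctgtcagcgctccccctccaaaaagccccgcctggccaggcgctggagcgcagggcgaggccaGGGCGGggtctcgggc

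GC box letters occurred 3 times in COL11A1, 2 times each in COL27A1 and COL5A1 and 1 time in COL5A3, and at least once in 42.6% of 35114 promoter windows of the same length. CCAAT was found 1 time each in COL11A1 and COL5A3 and in 32.0% of all windows. The AP-1 letters TGANTCA, the CAGA element CAGACA and the TATA box letters TATAAA, each read on both strands, were in none of these 4 windows and in 6.57%, 13.6% and 10.7% of all windows. The 4 windows were richer in G and C than the median window, with 74.0% in COL5A1, 68.8% in COL11A1, 66.0% in COL5A3 and 64.4% in COL27A1, against 58.0%.

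The remaining fibrillar collagens did not pass the test. COL11A2, the other heterotypic chain of type XI, averaged 187 ± 26.3 normalized counts in IGFBP-7 libraries and 150.1 ± 24.6 in PBS libraries (log2 difference 0.32, limma adjusted p = 0.106). COL2A1, the cartilage collagen, had 10.4 ± 9.12 in IGFBP-7 libraries and 18.8 ± 7.53 in PBS libraries (limma adjusted p = 0.0695). COL24A1 had 14.9 ± 7.84 in IGFBP-7 libraries and 18.9 ± 5.86 in PBS libraries (limma adjusted p = 0.478; SD, n = 3 each).

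Collagens that coat fibrils without forming them, the fibril-associated group, had 4 tested members, of which 1 was higher and 1 lower. COL16A1 averaged 5160.4 ± 15.6 normalized counts in IGFBP-7 libraries and 1792 ± 77.5 in PBS libraries (log2 change 1.53 ± 0.06, limma adjusted p = 2.12e-28). COL12A1, which binds the surface of type I fibrils, had 17305 ± 1249 in IGFBP-7 libraries and 56860 ± 2636 in PBS libraries, a fall (log2 change -1.72 ± 0.04, limma adjusted p = 2.11e-36). COL12A1 thus moved against COL1A1, and the group's median log2 change of 0.07 turned to -0.07 with scaling to the library total.

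Among 15 tested collagens of networks, beaded filaments, membranes and other forms, 8 were higher and 5 lower, with a median log2 change of 0.52, against 0.02 over all tested genes. COL6A3, a chain of the beaded filaments beside fibrils, had 29569 ± 1554 normalized counts in IGFBP-7 libraries and 5022 ± 368 in PBS libraries (log2 change 2.56 ± 0.05). COL15A1, a basement membrane zone collagen, had 483 ± 53.5 in IGFBP-7 libraries and 19.8 ± 7.80 in PBS libraries (log2 change 4.59 ± 0.23), and COL10A1, a cartilage collagen low in both groups, rose by 2.64 ± 0.68. COL4A6, a basement membrane chain, fell by 2.22 on the log2 scale to 105 ± 23.0 in IGFBP-7 libraries, against 485 ± 62.3 in PBS libraries. All 4 passed the test (limma adjusted p of at most 0.000765).

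Enzymes and chaperones that modify and fold procollagen were mostly higher: 11 of 13 tested genes rose and 2 fell (median log2 change 0.58). P4HA1, a catalytic subunit of prolyl 4-hydroxylase, had 5013 ± 194 normalized counts in IGFBP-7 libraries and 1892 ± 33.8 in PBS libraries (log2 change 1.40 ± 0.06, limma adjusted p = 7.01e-27). P4HA2 rose by 0.80 ± 0.05 on the log2 scale, PLOD2, a lysyl hydroxylase whose product makes stable cross-links, by 0.99 ± 0.04, and SERPINH1, the collagen chaperone HSP47, by 0.54 ± 0.04. P3H2, a prolyl 3-hydroxylase, and FKBP14, a folding isomerase, both rose by 0.89. Named after their values were seen, P4HA3, another prolyl 4-hydroxylase subunit, fell by 0.72 and COLGALT2, a collagen galactosyltransferase, fell by 0.78. These changes were smaller than those of COL1A1 and COL5A1 throughout.

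Of 15 tested genes of procollagen export and propeptide cleavage, 12 rose and 3 fell (median log2 change 0.50). BMP1, the main protease that removes the carboxyl-terminal propeptide, had 10248 ± 363 normalized counts in IGFBP-7 libraries and 4784 ± 82.6 in PBS libraries (log2 change 1.10 ± 0.05, limma adjusted p = 1.33e-25). Its enhancers PCOLCE and PCOLCE2 rose by 0.53 and 1.23 on the log2 scale. ADAMTS2, which removes the amino-terminal propeptide, rose by 1.48 ± 0.25 at a low level, 120.1 ± 18.3 in IGFBP-7 libraries and 43.2 ± 12.3 in PBS libraries. Its relative ADAMTS14 fell by 0.76, and TLL1, a relative of BMP1, fell by 2.18 to 201 ± 46.0 in IGFBP-7 libraries, against 899.6 ± 64.7 in PBS libraries.

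Genes of fibril assembly and cross-linking were split, with 7 of 14 higher, 4 lower and 3 not passing. Over all tested genes, 31.3% were higher and 29.2% lower. The median log2 change of the list was 0.13, but -0.01 when libraries were scaled to their totals. FN1, fibronectin, on which collagen fibrils assemble, had 544971 ± 32799 normalized counts in IGFBP-7 libraries and 102918 ± 4088 in PBS libraries (log2 change 2.40 ± 0.04, limma adjusted p = 2.38e-46). LOX, the lysyl oxidase that starts cross-linking, had 9359 ± 504 in IGFBP-7 libraries and 2484 ± 119.9 in PBS libraries (1.91 ± 0.05), the collagen-binding glycoprotein SPARC rose by 1.49 ± 0.04, the small proteoglycan BGN by 2.39 ± 0.13, and periostin, POSTN, at a low level, by 2.33 ± 0.60. LUM, a small proteoglycan that binds fibrils, fell by 1.68 to 109 ± 9.84 in IGFBP-7 libraries, against 354 ± 58.5 in PBS libraries. DCN, another such proteoglycan, had 22.7 ± 4.12 in IGFBP-7 libraries and 33.6 ± 4.22 in PBS libraries and did not pass (limma adjusted p = 0.214).

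Collagen receptors were higher in 5 of 8 cases and lower in 2, with a median log2 change of 0.69. MRC2, an endocytic receptor that takes up collagen for breakdown, rose by 1.64 ± 0.04 on the log2 scale, and the collagen-binding integrin subunits ITGA11, ITGA2 and ITGA1 rose by 1.40, 1.23 and 0.77, with their partner ITGB1 at 0.62. DDR2, a receptor kinase for fibrillar collagen, fell by 0.33 to 4662 ± 134 normalized counts in IGFBP-7 libraries, against 5871 ± 324 in PBS libraries (limma adjusted p = 4.74e-07). OSCAR, a collagen receptor best known from osteoclasts and named after its values were seen, passed narrowly (log2 change -0.57, limma adjusted p = 0.0434).

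Among enzymes of collagen breakdown and their inhibitors, 5 of 13 rose, 5 fell and 3 did not pass, where 31.3% of all tested genes rose and 29.2% fell. MMP1, the classical interstitial collagenase, fell by 2.12 on the log2 scale to 4571 ± 131 normalized counts in IGFBP-7 libraries, against 19830.0 ± 1072 in PBS libraries (limma adjusted p = 1.76e-38). MMP2, a gelatinase, rose by 1.34 ± 0.04, MMP14, a membrane-bound collagenase, by 0.74 ± 0.05, the inhibitor TIMP1 by 0.95 ± 0.05 and FAP, a protease of activated fibroblasts, by 2.78 ± 0.10. MMP13, a further collagenase, named after its values were seen, had 15.8 ± 2.45 in IGFBP-7 libraries, was at 0 in all 3 PBS libraries, and was too low to be tested.

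Of 16 tested regulators of collagen transcription and message, 10 rose and 6 fell (median log2 change 0.38), where 31.3% of all tested genes rose and 29.2% fell. SMAD7 and SKIL, inhibitors of TGF-beta signalling that the pathway itself induces, rose by 3.32 ± 0.08 and 2.69 ± 0.07 on the log2 scale, and MYOCD, a coactivator of serum response factor, by 1.47 ± 0.13. LARP6, which binds type I collagen messages, rose by 0.24 ± 0.06. SMAD3, the TGF-beta effector, fell by 1.17 to 4767 ± 179 normalized counts in IGFBP-7 libraries, against 10740 ± 249.9 in PBS libraries (limma adjusted p = 9.34e-27). TGFB1, the ligand, had 24164 ± 1215 in IGFBP-7 libraries and 5979 ± 227 in PBS libraries (2.01 ± 0.05, limma adjusted p = 3.52e-38). The cells' own IGFBP7 transcript had 20739.7 ± 474 in IGFBP-7 libraries and 11180.2 ± 511 in PBS libraries.

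**Figure D4:**
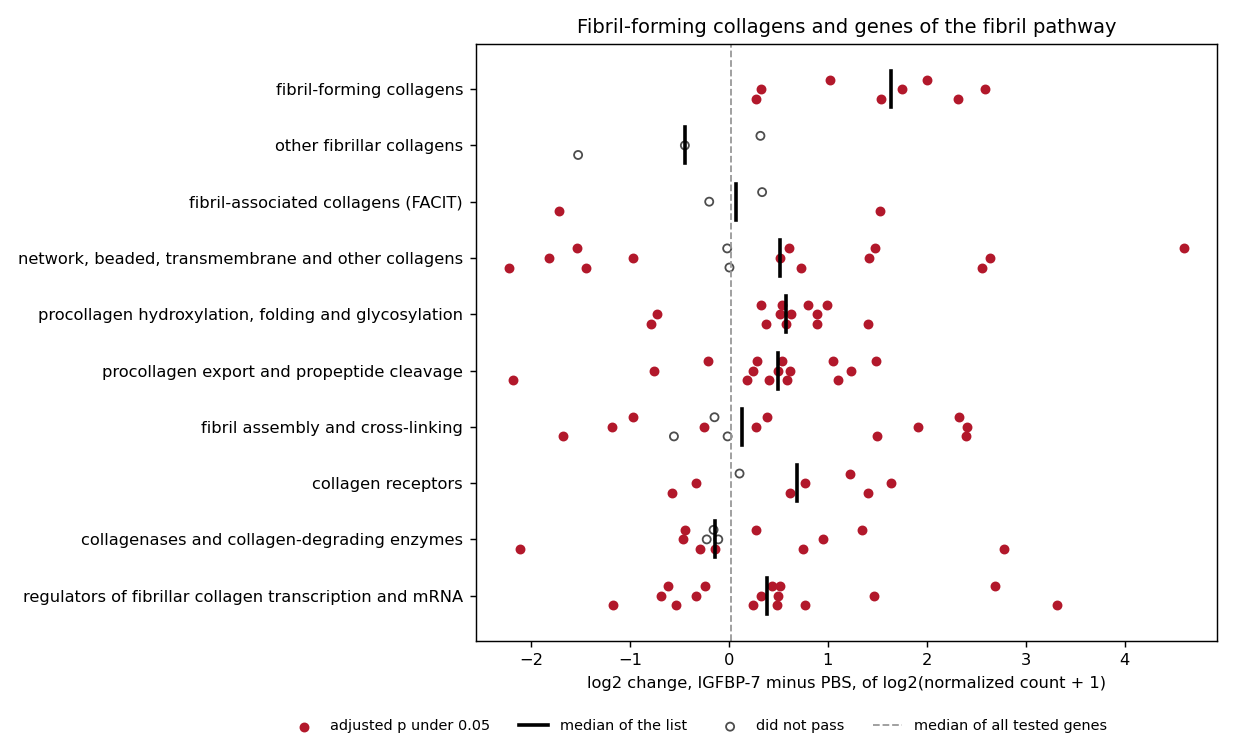
Log2 change, IGFBP-7 minus PBS, of each tested gene in 10 lists of the collagen fibril pathway, filled where the adjusted p is under 0.05 and open where it did not pass, with a bar at the median of each list and a dashed line at the median of all tested genes. The 8 fibril-forming collagens all lie to the right of that line with a median of 1.64, and the lists of assembly, breakdown and regulation hold members on both sides.

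The genes whose pattern over the 6 libraries lay closest to a collagen's were found among 4305 protein-coding genes with a mean of at least 1000, by the root mean square difference of log2 values centred on each gene's mean. For COL1A1 the nearest was TGFB1, at 0.0213, before NEDD9 at 0.0362 and NREP at 0.0451. COL1A2 lay closest to FSIP1, at 0.0136, then TPM1 at 0.0432 and SERPINE2 at 0.0437. COL5A1 lay closest to COL6A3, at 0.0429, then LMCD1 at 0.0626 and SEMA7A at 0.0665. None of these nearest genes was another of the 8 collagens, of which COL5A3 was below the minimum and no candidate. The measure is dominated by the difference between the groups and is a description over 6 libraries.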

How the data were processed

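Per the file headers, the deposited table holds normalized counts, a signal on a linear scale that the authors derived from read counts. Per the submitters' processing notes, the tools were STAR, Subread, featureCounts and DESeq2, with no role or version. The authors' build, annotation and strand setting are not known from the labels, and coordinates come from GENCODE 29 and RefSeq (GRCh38) by gene identifier or symbol. In each library 100% of values were whole multiples of 1 step within 0.01, and a value divided by its step is called a read count here. Of the nonzero read counts 99.6% were even in each library, 2 to a fragment. edgeR and DESeq2 were given these read counts undivided. A count of 3 fragments in a library equals 2.54 to 3.20 normalized counts, covering counting error only.

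IGFBP-7 was compared with PBS by limma-trend (limma 3.58.1, R 4.3.3) on log2(normalized count + 1), without covariates, two-sided, for genes with a mean of at least 10, with Benjamini-Hochberg adjustment. The log2 scale understates changes of low genes. Ratios and shares had exact permutation tests. Scripts were tested on simulated data. Alternatives were edgeR 4.0.16 and DESeq2 1.42.0 on recovered reads, other scalings, pseudocounts and filters, a replicate block and leaving out each library.

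Members and lists were chosen with earlier results of these data known. All 8 members are named, as are up to 4 genes with the largest change in each list. Listed genes known to act on fibrillar collagen are named where the table holds them. Of these, LOXL2 and PLOD1 were absent from it. It held 13 of 18 listed folding genes, 17 of 20 assembly genes and 16 of 24 regulators. The genes closest in pattern to COL3A1 are not reported here.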

Additional observations from a re-analysis of the deposited data

How the results depend on the processing

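All 8 fibril-forming collagens kept their direction and stayed past the threshold under the 16 alternatives, 128 of 128 values. Log2 changes ranged over 1.42 to 2.04 for COL1A1, 1.60 to 1.78 for COL1A2, 0.13 to 0.30 for COL3A1, 2.36 to 2.60 for COL5A1, 0.17 to 0.33 for COL5A2, 0.86 to 1.16 for COL5A3, 1.39 to 1.58 for COL11A1 and 2.17 to 2.34 for COL27A1. The lowest value of COL1A1, 1.42, came from quantile normalization. The largest adjusted p was 0.00471 for COL3A1, under quantile normalization, and 0.000466 for COL5A3. With 1 library left out, the log2 difference of the ratio of COL5A2 to COL5A1 ranged over -2.28 to -2.24 and the difference in summed share over 0.924 to 0.958 percentage points. Scaling to the library total and the replicate block leave a ratio or share within a library as it is by construction. COL5A1-AS1 ranged over 3.09 to 3.77.

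Genes higher numbered 2435 with scaling to the library total, against 3721, and genes lower 4176 against 3471. With edgeR 3540 were higher and with DESeq2 3572. The other fibrillar collagens, 0 higher and 0 lower, had 1 lower under the replicate block, and 0 to 1 higher and 0 to 1 lower when 1 library was left out. Folding genes that were lower numbered 1 in place of 2 with the minimum at 100. Collagen receptors that were lower numbered 1 in place of 2 without a minimum, with a minimum of 100 and under quantile normalization, and 1 to 2 when 1 library was left out.

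Same-numbered libraries did not deviate together (correlations of -0.049 to 0.012, against -0.028 to 0.072 for other pairs), so the values show no pairing by number. These correlations cannot tell whether same-numbered libraries were handled together. With the replicate block 3715 genes were higher and 3462 lower, and COL1A1 stayed at 2.00, as a block in a balanced design leaves the log2 change as it is. COL5A3 had the fewest fragments of the 8 collagens and the widest interval.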
